A study of Mus musculus with 6 samples.

Results

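The genes described here are 9 components of the receptors for GM-CSF, G-CSF and IL-3 and of the kinase and transcription factors directly beneath them: the ligand-specific chains Csf2ra and Il3ra, the shared chains Csf2rb and Csf2rb2, the G-CSF receptor Csf3r, the kinase Jak2, and Stat3, Stat5a and Stat5b. They were chosen by gene symbol, and each was read by the 1 probe set annotated with that symbol alone, so all 9 were measured among 19938 single-named genes. The samples were mouse bone marrow cells transduced either with a murine stem cell virus vector carrying MN1 ahead of a fluorescent reporter (3 arrays) or with the same type of vector without MN1 (3 arrays). MN1 is a transcriptional coregulator that drives myeloid leukaemia in mice when overexpressed in marrow cells. The series text states 3 independent experiments. Cells with reporter signal were sorted at 72 hours, so both groups carried a retroviral vector and had been through the same sort. The reporter is named YFP in the series text and GFP in the sample labels. The sources used here do not give the strain, age or sex, the number of animals per sample or the culture cytokines. Nor do they say whether the 3 samples of a group came from different animals, so the p-values measure the spread between these samples.

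GM-CSF, G-CSF and IL-3 are cytokines that keep myeloid progenitors alive, make them divide and drive their maturation. GM-CSF and IL-3 bind a ligand-specific alpha chain that pairs with a beta chain, while G-CSF binds a receptor that pairs with itself. Mice have a pair of beta chains, one shared by the receptors for GM-CSF, IL-3 and IL-5 (Csf2rb) and one that works with IL-3 (Csf2rb2). None of these receptors is a kinase itself: each relies on a bound Janus kinase, chiefly Jak2, which phosphorylates STAT proteins that then enter the nucleus. Stat5a and Stat5b are the main STATs of the beta chain receptors, and the G-CSF receptor also signals through Stat3. Among the genes STAT5 switches on are Cish and the Socs genes, whose products dampen the same receptors.

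The promoter sequences below come from RefSeq (build GRCm38.p6) and cover the 250 bases before the annotated start, written 5′ to 3′ on the strand of the gene. They are shown for Jak2, the 1 member whose groups did not overlap, for Csf3r, the member that varied most between arrays, and for a pair of chains of the GM-CSF and IL-3 receptors. Of the 9 genes, 8 matched the promoter table, with 10 windows in all. Csf2rb had no entry. Capitals mark matches, on either strand, to 3 strings: TTCNNNGAA, the core bound by STAT factors, GAGGAA, a core bound by the myeloid factor PU.1, and TTGCNNAA, a core bound by C/EBP factors. No match overlapped a match to another string in these windows.
Csf3r: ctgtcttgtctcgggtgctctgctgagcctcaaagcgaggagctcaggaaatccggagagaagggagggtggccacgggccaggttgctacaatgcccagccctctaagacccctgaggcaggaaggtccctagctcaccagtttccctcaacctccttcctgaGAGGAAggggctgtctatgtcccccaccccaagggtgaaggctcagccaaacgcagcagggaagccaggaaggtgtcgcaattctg
Csf2ra: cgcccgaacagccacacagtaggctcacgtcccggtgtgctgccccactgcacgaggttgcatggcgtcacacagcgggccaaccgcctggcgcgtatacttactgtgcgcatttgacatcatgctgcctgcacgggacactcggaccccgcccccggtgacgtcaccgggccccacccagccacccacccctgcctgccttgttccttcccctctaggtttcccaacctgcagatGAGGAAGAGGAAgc
Csf2rb2: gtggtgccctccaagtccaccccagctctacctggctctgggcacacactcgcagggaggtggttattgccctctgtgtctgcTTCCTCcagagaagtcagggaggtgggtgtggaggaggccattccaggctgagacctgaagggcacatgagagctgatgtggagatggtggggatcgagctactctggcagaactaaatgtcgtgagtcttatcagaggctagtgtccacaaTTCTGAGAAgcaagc
Jak2: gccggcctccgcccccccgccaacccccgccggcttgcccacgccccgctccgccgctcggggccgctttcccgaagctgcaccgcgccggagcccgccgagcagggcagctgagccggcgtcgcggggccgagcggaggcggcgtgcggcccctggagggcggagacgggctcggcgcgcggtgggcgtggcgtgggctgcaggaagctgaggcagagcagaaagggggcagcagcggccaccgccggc
The Csf3r window lies at chr4:126024409-126024658 on the plus strand and holds 1 GAGGAA. The Csf2ra window lies at chr19:61228419-61228668 on the minus strand and holds GAGGAA 2 times in direct succession, starting 14 and 8 bases before the start. The Csf2rb2 window lies at chr15:78305722-78305971 on the minus strand and holds 1 GAGGAA, read as TTCCTC on this strand, and 1 TTCNNNGAA. The Jak2 window lies at chr19:29251553-29251802 on the plus strand, holds none of the 3 strings, and is 80.8% G and C with 37 CpG pairs, against medians of 52.4% and 6 over 32851 promoter windows of the same length. In all, 4 of the 8 genes held GAGGAA (Csf2ra, Csf2rb2, Csf3r and Stat5a), 1 held TTCNNNGAA (Csf2rb2) and 1 held TTGCNNAA (Il3ra). Over all windows, counted per window and not per gene, the shares were 23.3% for GAGGAA, 7.02% for TTCNNNGAA and 9.56% for TTGCNNAA. A gene with more than 1 window, such as Stat5a, had more than 1 place for a match, so the 2 kinds of count are not alike. These are matches of letters and not sites known to be bound in these cells.

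Some members lie side by side in the mouse genome. Csf2rb and Csf2rb2 are neighbours on chromosome 15, with 0 coding genes between them. On chromosome 11, Stat5a stands between Stat5b and Stat3, again with 0 coding genes between Stat5a and either of them. Stat5a and Stat5b are paralogs that also share sequence in part of their promoter windows. Both have alternative annotated starts with windows of their own, and the pair of windows that aligned best is shown. A local alignment of their promoter windows found a stretch of 94 aligned columns, of which 74 (78.7%) were identical, shown with the identical bases in capitals.
Stat5a: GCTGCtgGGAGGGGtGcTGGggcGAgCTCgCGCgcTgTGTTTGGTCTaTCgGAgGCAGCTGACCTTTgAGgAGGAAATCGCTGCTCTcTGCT
Stat5b: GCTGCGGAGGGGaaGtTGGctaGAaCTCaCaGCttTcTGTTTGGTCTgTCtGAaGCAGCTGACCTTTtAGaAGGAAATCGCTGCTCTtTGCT
The Stat5a stretch lies at chr11:100860381-100860472 on the plus strand and the Stat5b stretch at chr11:100822573-100822664 on the minus strand. Both end within 12 bases of an annotated start. The window of the other Stat5b start, at chr11:100850582-100850831, is 82% G and C with 40 CpG pairs and is not part of this match. The labels do not say which part of each transcript the probe sets read, so cross-hybridisation between paralogs (Csf2rb with Csf2rb2, Stat5a with Stat5b) cannot be judged from these files.

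Every value below is a log2 expression value per probe set as deposited, and the precision is set by the 3 arrays per group. The medians of the 6 arrays ran from 5.82 to 6.01. On the second principal component, with 29.2% of the variance, replicate 3 of both groups stood apart from the other 4 arrays, at -25.7 for the empty vector and -34.68 for MN1 against 9.34 to 22.92. As a check of the labels, Mn1 itself separated the groups: it read 6.47, 6.62 and 6.08 with MN1 and 5.34, 5.41 and 4.80 with the empty vector (adjusted p = 0.584 by limma). The 6 pan-haematopoietic markers, among them Ptprc (CD45) and Spi1 (PU.1), had a mean of 11.62 to 11.79 on every array, as fits the label of marrow cells. Over all genes, limma called 0 at an adjusted p under 0.05 (0%), with 1675 at an unadjusted p under 0.05. No difference described below passed adjustment over all genes.

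Across the 9 genes the differences between MN1 and empty vector were small. In MN1 cells 7 genes read lower and 2 higher (median log2 difference -0.14), where 56.7% of all genes read lower, 43.3% higher, and the median over all genes was -0.03. The groups did not overlap for 1 of the 9, Jak2, which was lower; for all genes the share with MN1 below was 10.3% and with MN1 above 5.71%. Jak2 was also the 1 member with an unadjusted p under 0.05, where the share of all genes was 8.4%, made up of 4.23% lower and 4.17% higher. The count of members is therefore near the background. All 9 genes were clearly expressed: their means over the 6 arrays lay between 9.17 and 12.69, above the upper quartile of gene means of 8.61. A lack of signal over background does not limit these comparisons.

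**Figure D1:**
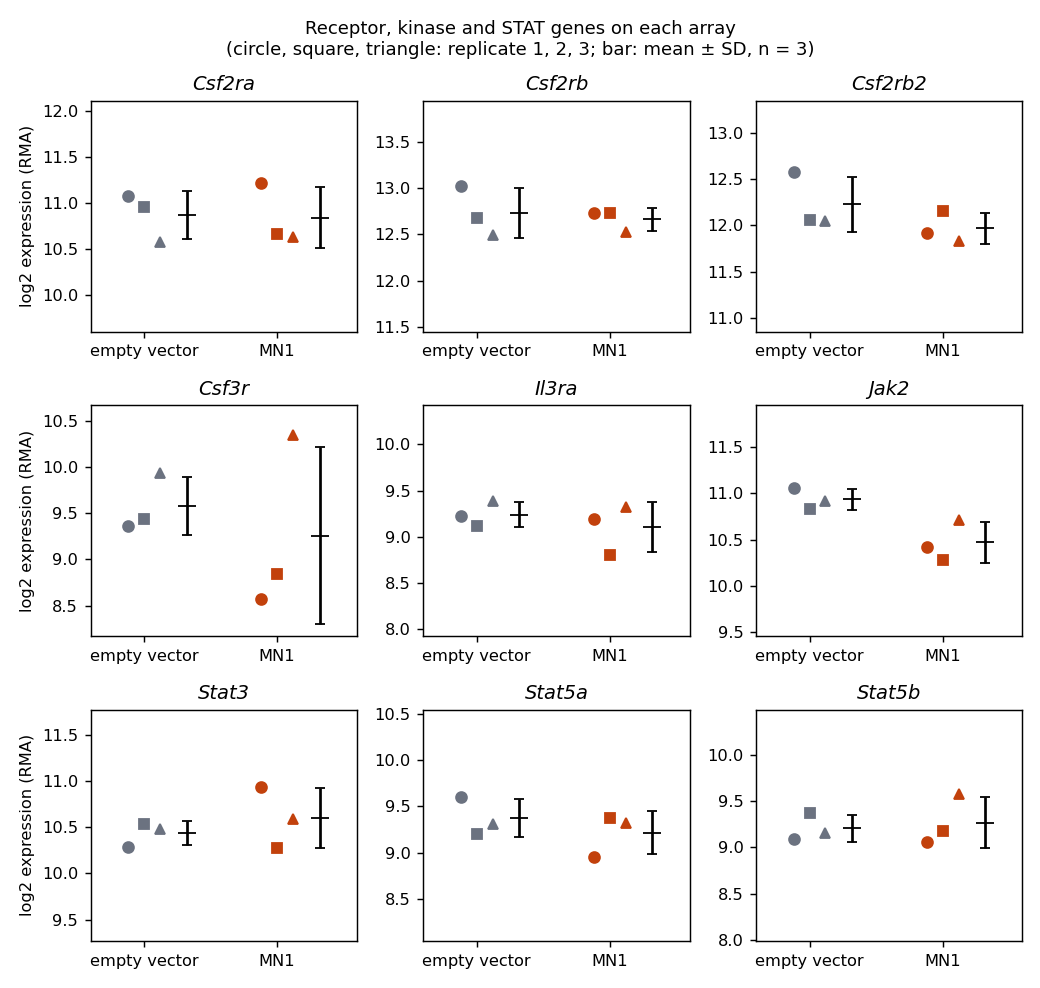
Log2 expression of each of the 9 genes on each array, with the empty vector in grey and MN1 in orange; symbols give the replicate number, bars the mean ± SD (n = 3), and every vertical axis spans the same range of log2 units around the gene's mean. Jak2 is the gene whose groups separate (10.28 to 10.71 with MN1, 10.84 to 11.06 with the empty vector), and Csf3r has the widest spread, from 8.58 to 10.35 within the MN1 group.

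Of the ligand-specific chains, Csf2ra, which encodes the alpha chain that binds GM-CSF, showed the smallest difference of the 9. It read 11.22, 10.67 and 10.64 on the MN1 arrays and 11.08, 10.96 and 10.57 on the empty vector arrays. The groups overlapped, with the highest array in the MN1 group and the lowest in the empty vector group. The log2 difference was -0.03 ± 0.21 (SE), with a 95% interval from -0.53 to 0.47 (limma adjusted p = 0.968). Differences inside that interval could not be resolved with 3 arrays per group.

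Il3ra, the alpha chain of the IL-3 receptor, read 9.19, 8.80 and 9.32 with MN1. With the empty vector it read 9.22, 9.11 and 9.39. The groups overlapped, and MN1 replicate 2 was the lowest of the 6 arrays. MN1 minus empty vector came to -0.14 ± 0.16 (SE), with a 95% interval from -0.53 to 0.25 (limma adjusted p = 0.775). Without MN1 replicate 2 it was 0.0145, so the direction of the difference rests on that array.

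The beta chains carry the signalling part of the GM-CSF and IL-3 receptors. Csf2rb, the chain shared with IL-5, read 12.73, 12.73 and 12.52 with MN1 and 13.02, 12.67 and 12.49 with the empty vector. The MN1 values lay inside the range of the empty vector values. The log2 difference was -0.07 ± 0.16 (SE), with a 95% interval from -0.45 to 0.31 (limma adjusted p = 0.893).

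Csf2rb2, the IL-3 chain, read 11.92, 12.16 and 11.84 with MN1 and 12.57, 12.05 and 12.05 with the empty vector. MN1 replicates 1 and 3 lay below every empty vector array, and MN1 replicate 2 lay above replicates 2 and 3 of the empty vector. On the log2 scale MN1 differed by -0.26 ± 0.18 (SE), with a 95% interval from -0.68 to 0.17 (limma adjusted p = 0.655). It shrank to -0.08 without empty vector replicate 1, the array on which both beta chains were highest. Over the 6 arrays Csf2rb and Csf2rb2 varied together, with r = 0.84, a description over arrays that share all sources of variation and, possibly, probe sequence.

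Whether the neighbouring beta chains changed unequally was read from the log2 value of Csf2rb less that of Csf2rb2 within each array. That quantity was 0.82, 0.57 and 0.69 with MN1 and 0.45, 0.62 and 0.44 with the empty vector. The groups overlapped by 1 array on each side. The shift was 0.19, with a two-sided exact permutation p of 0.2, where 3 arrays against 3 cannot give less than 0.1, and an adjusted p of 0.4 over the 2 pairs of paralogs compared. An unequal change of the beta chains was thus not shown at this number of arrays.

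Csf3r, the G-CSF receptor of neutrophils and their precursors, was the most variable member. It read 8.58, 8.84 and 10.35 with MN1 and 9.37, 9.44 and 9.94 with the empty vector. MN1 replicates 1 and 2 lay below, and MN1 replicate 3 above, every empty vector array. The SD within the MN1 group was 0.96 against 0.31 within the empty vector group, and the SD over all 6 arrays exceeded that of 95.8% of genes. The log2 difference was -0.33 ± 0.47 (SE), with a 95% interval from -1.45 to 0.79 (limma adjusted p = 0.818). Without MN1 replicate 3 it was -0.87 and without MN1 replicate 1 it was 0.0124, so no direction can be given. Without replicate 3 of both groups it was -0.70 (adjusted p = 0.679).

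The neutrophil markers were mixed in how they varied beside Csf3r over the 6 arrays, with a positive correlation for 7 and a negative one for 8. Of 15 measured neutrophil markers, 14 read lower with MN1 and 1 higher (median log2 difference -1.06). For 1 the groups did not overlap, with MN1 below, where the share of all genes was 10.3%. The mean of the neutrophil markers per array ran from 9.01 to 12.06 with the empty vector and from 9.34 to 10.13 with MN1. The lowest mean was that of empty vector replicate 3, the array with the highest Csf3r of its group. Elane, which encodes neutrophil elastase, read 6.45 there against 12.67 and 12.96 on the other empty vector arrays. Ly6g, a surface marker of mature neutrophils, read 6.56 there against 10.77 and 11.31. Lcn2, a granule protein, went the other way and read 12.49, 13.13 and 13.68 with the empty vector and 10.86, 11.74 and 13.80 with MN1. Like Csf3r it was highest on replicate 3 of each group and lowest on replicate 1. In such bulk samples fewer cells of a type and less RNA per cell cannot be told apart.

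Monocytes carry the receptors for GM-CSF as well. Of 14 monocyte and macrophage markers, 11 were higher and 3 lower with MN1 (median 0.85). The 3 lower were Cd14 (-0.36), Ccr2 (-0.10) and Cx3cr1 (-0.375), all with overlap. The 6 that separated the groups upward were C1qa, C1qb, C1qc, Msr1, Ctss and Csf1r, where the share of all genes was 5.71%. The list mean ran from 10.47 to 11.12 with MN1 and from 9.41 to 10.26 with the empty vector. The list as a whole thus separated the groups while Csf2ra and Csf2rb did not. It does not tell monocytes from macrophages. Of 8 eosinophil markers, all were lower with MN1 (median -1.33), and 2 lay below all empty vector arrays, as did 10.3% of all genes. The eosinophil list mean ran from 6.35 to 7.14 with MN1 and from 6.56 to 8.53 with the empty vector. The part of these cell types in the receptor values was not tested.

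**Figure D2:**
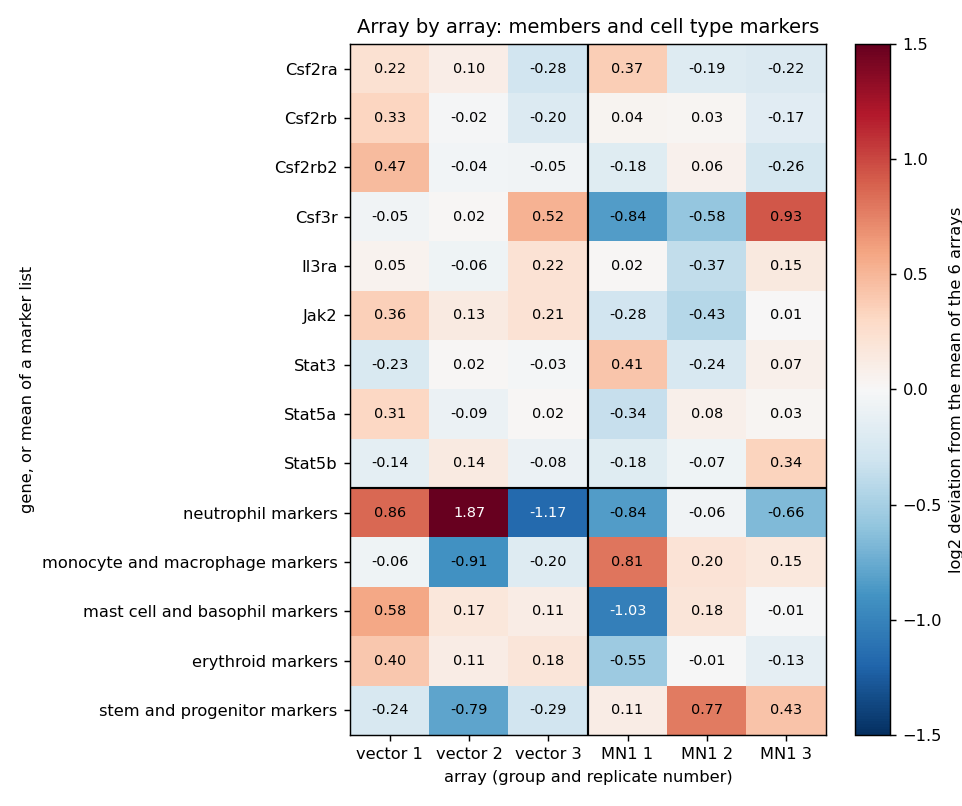
Each cell gives the deviation of a gene, or of the mean of a marker list, from its own mean over the 6 arrays (log2), with arrays in columns and the groups parted by the vertical line. Csf3r ranges from -0.84 to 0.93 within the MN1 group; the neutrophil markers are highest on empty vector replicate 2 (1.87) and lowest on empty vector replicate 3 (-1.17), an order Csf3r does not share.

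Jak2, the kinase bound to the beta chains and to the receptors for erythropoietin and thrombopoietin, showed the largest difference of the 9 genes. It read 10.42, 10.28 and 10.71 on the MN1 arrays and 11.06, 10.84 and 10.91 on the empty vector arrays. All MN1 arrays lay below all empty vector arrays, with MN1 replicate 3 closest. The groups differed by -0.47 ± 0.14 (SE), or 1.38-fold lower, with a 95% interval from -0.80 to -0.13 that is not corrected for the number of genes. Its unadjusted p was 0.0141 and its limma adjusted p 0.584, so it did not pass over all genes. The difference ran from -0.59 to -0.37 with single arrays left out and was -0.60 without replicate 3 of both groups. In size it exceeded the absolute difference of 92.6% of genes.

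The other Janus kinases measured did not share the separation. Jak1, which serves the interferon and gp130 receptors, read 11.38, 11.15 and 11.20 with MN1 and 11.25, 11.20 and 11.31 with the empty vector, which gives a log2 difference of -0.01 ± 0.10 (SE). Tyk2, a kinase of interferon and IL-12 receptors, differed by 0.12 ± 0.24. Jak3 was not analysed here. That Jak2 differed from Jak1 or Tyk2 was not tested.

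Marker lists of lineages that use Jak2, and of stem and progenitor cells, are given beside it. Of 9 erythroid markers, 7 were lower and 2, Gata1 (0.18) and Epor (0.24), higher with MN1 (median -0.46). Of the 9, 5 lay below all empty vector arrays, as did 10.3% of all genes. The list mean ran from 6.68 to 7.22 with MN1 and from 7.34 to 7.64 with the empty vector, so that this list, like Jak2, did not overlap. Car1, an erythroid carbonic anhydrase, read 7.35, 8.06 and 8.99 with MN1 and 9.22, 9.06 and 9.87 with the empty vector. The others that lay below, Klf1, Rhag, Slc4a1 and Ermap, had means over all arrays of 5.13 to 6.40. These lie under the median of gene means of 6.55. Of 12 mast cell and basophil markers, 11 were lower and 1 higher with MN1 (median -0.64), and 2 lay below all empty vector arrays. The means of this list overlapped (9.55 to 10.76 with MN1, 10.69 to 11.17 with the empty vector). All 6 megakaryocyte markers, of a lineage whose growth factor also signals through Jak2, had a higher MN1 mean (median 1.07). Of these, 2 separated the groups upward, against 5.71% of all genes. The megakaryocyte list mean per array overlapped, from 9.65 to 11.46 with MN1 and from 8.68 to 10.07 with the empty vector. Of 10 stem and progenitor markers 9 were higher and 1, Kit (-0.04), lower. The 6 that lay above all empty vector arrays, as did 5.71% of all genes, were Cd34, Flt3, Hlf, Meis1, Mllt3 and Eng. Procr differed by 0.11 with overlap. The list mean ran from 8.48 to 9.15 with MN1 and from 7.59 to 8.14 with the empty vector, without overlap. The lists were chosen with earlier results of these data known, so this separation is a description and no separate result. The erythroid list was not alone in lying below. Of 11 T and NK markers 8 were lower and 3 higher, and 3 lay below all empty vector arrays. The mean of this list was 5.18 to 5.49 with MN1 and 5.54 to 5.74 with the empty vector. These T and NK means lay under the median of gene means of 6.55. Klrb1c, Gzma, Ncr1, Cd3g and Cd3d had means under the lower quartile of 4.91. The part of the listed cell types in the Jak2 difference was not tested.

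Among the STATs, Stat3, which the G-CSF receptor and the gp130 cytokines use, read 10.93, 10.28 and 10.59 with MN1 and 10.29, 10.54 and 10.49 with the empty vector. MN1 replicate 1 was the highest and MN1 replicate 2 the lowest of the 6 arrays, so the MN1 values enclosed those of the empty vector. The log2 difference was 0.16 ± 0.18 (SE), with a 95% interval from -0.27 to 0.60 (limma adjusted p = 0.763). It was -0.0031 without MN1 replicate 1.

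Stat5a read 8.95, 9.37 and 9.32 with MN1 and 9.61, 9.20 and 9.31 with the empty vector. MN1 replicate 1 was the lowest and empty vector replicate 1 the highest array, and the other 4 lay close together. On the log2 scale the difference was -0.16 ± 0.16 (SE), with a 95% interval from -0.55 to 0.24 (limma adjusted p = 0.75). It was -0.02 without MN1 replicate 1.

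Stat5b read 9.06, 9.17 and 9.58 with MN1 and 9.09, 9.37 and 9.15 with the empty vector. MN1 replicate 1 was the lowest array and MN1 replicate 3 the highest. The log2 difference was 0.06 ± 0.16 (SE), with a 95% interval from -0.33 to 0.45 (limma adjusted p = 0.905), and it turned to -0.0281 under quantile normalization. For Stat5a less Stat5b within each array the values were -0.11, 0.20 and -0.25 with MN1 and 0.51, -0.17 and 0.16 with the empty vector. The groups overlapped, and the shift of -0.22 had a two-sided exact permutation p of 0.5 (adjusted p = 0.5 over the 2 pairs). An unequal change of the paralogs was not shown.

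**Figure D3:**
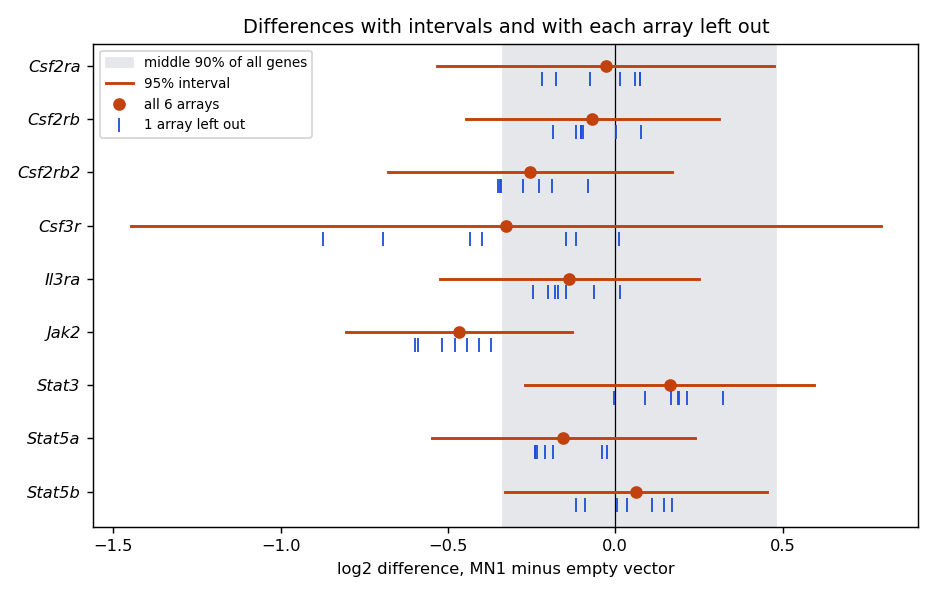
Log2 difference of each gene (MN1 minus empty vector, orange point) with its 95% interval from limma (line). Blue ticks are the differences with 1 array left out and, in addition, without replicate 3 of both groups. Grey marks the middle 90% of all genes, from -0.34 to 0.48. Jak2 is the gene whose interval and whose values with an array left out all stay below 0; the ticks of Csf3r run from -0.87 to 0.0124.

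The 3 members with the largest SD over the arrays were Csf3r, Jak2 and Csf2ra, and their array patterns were set beside those of 4482 other genes with an SD of at least 0.3. Over 6 arrays high correlations are easily met among so many genes, and the values are a description. The pattern of Csf3r was most like those of Siglece (r = 0.99), an inhibitory sialic acid receptor of myeloid cells, Irak3 (r = 0.99), which restrains Toll-like receptor signalling, and Gspt2 (r = 0.98). Siglece read 6.19, 7.16 and 11.03 with MN1 and 8.58, 9.11 and 10.10 with the empty vector, again highest on replicate 3 of each group. Jak2 was most like Siglecf, Lif and Creb3l1, each with r = 0.94, and in all 3 the MN1 arrays lay below the empty vector arrays. Csf2ra was most like Klk1b1 (r = 0.99), Mcf2l (r = 0.97) and Sh2b2 (r = 0.96), an adaptor of receptor kinases, and none of these separated the groups. All these genes were picked for likeness to a member over the same arrays. Whether they separated the groups follows in part from that choice and is no separate result.

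The wider pathway was described with 7 lists of ligands, other receptors, kinases, adaptors, inhibitors and target genes, 98 genes without the 9 members. Of these 98, 56 were higher and 42 lower with MN1 (57.1% higher and 42.9% lower, median log2 difference 0.08), where of all genes 43.3% were higher and 56.7% lower (median -0.03). At an unadjusted p under 0.05, 4 were higher (4.08%, against 4.17% of all genes) and 4 lower (4.08%, against 4.23%). The MN1 arrays lay above the empty vector arrays for 6 genes (6.12%, against 5.71%) and below for 5 (5.1%, against 10.3%). The shares at an unadjusted p under 0.05 and with MN1 above were near those of all genes. The share with MN1 below was smaller, and the balance of higher and lower genes was the other way round; neither was tested. After adjustment over all genes 0 of the 98 passed.

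**Figure D4:**
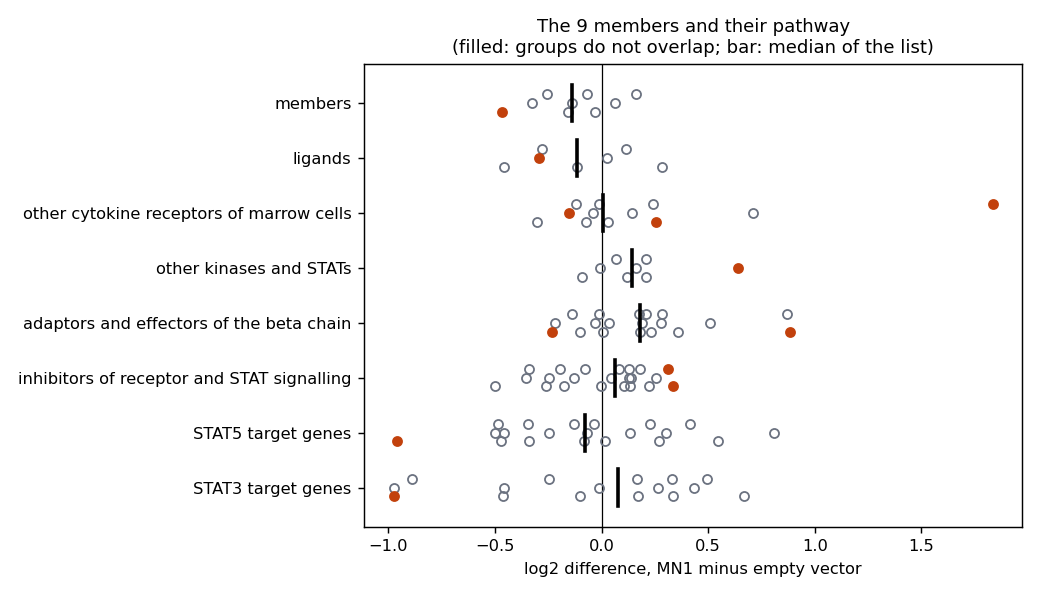
Log2 differences (MN1 minus empty vector) of the 9 members and of the genes of each pathway list; a circle is a gene, filled where the 3 MN1 arrays and the 3 empty vector arrays do not overlap, and the black bar is the list's median. The list medians lie between -0.14 and 0.18, and the point farthest to the right is Flt3 at 1.83.

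The ligands themselves were read at low levels. Of 7 measured, 3 were higher and 4 lower (median -0.12). Csf2, the gene of GM-CSF, read 4.76, 4.65 and 5.25 with MN1 and 4.54, 4.35 and 5.44 with the empty vector. Csf3, the gene of G-CSF, read 5.43, 5.76 and 5.96 with MN1 and 5.63, 5.93 and 6.43 with the empty vector. Neither separated the groups. Il3 did, at 3.90, 3.93 and 3.97 with MN1 against 4.32, 4.07 and 4.30, a log2 difference of -0.30 ± 0.10 (SE), but all 6 values lay under the lower quartile of gene means of 4.91. Csf1, the macrophage growth factor, was read higher than these and differed by -0.46 ± 0.50 with overlapping groups.

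Of 12 other cytokine receptors, 6 were higher and 6 lower (median 0.01). Flt3, the receptor for FLT3 ligand on early progenitors, had the largest difference at 1.83 ± 0.39 (SE) and did not overlap. Csf1r, the receptor of monocytes and macrophages, read 11.57, 11.56 and 11.57 with MN1 and 11.42, 11.25 and 11.27 with the empty vector, which gives a log2 difference of 0.25 ± 0.09 without overlap. Il6st (gp130) differed by 0.71 ± 0.74 with overlap. Il5ra, the alpha chain that pairs with Csf2rb in eosinophils, read 3.95, 4.02 and 3.94 with MN1 and 3.94, 4.02 and 4.19 with the empty vector, under the lower quartile of gene means. Osmr, another receptor of this list, lay below in every MN1 array, by -0.15 ± 0.09, with all values under the lower quartile of gene means. Csf1r and Osmr are named because of these values. Thus Csf1r and Flt3 separated the groups upward and Osmr downward, while the chains of the GM-CSF and IL-3 receptors did not separate them. A difference between these receptors was not tested.

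Of 8 other kinases and STATs, 6 were higher and 2 lower (median 0.14). Stat2, a transcription factor of the type I interferon response, read 9.97, 9.90 and 9.96 with MN1 and 9.65, 9.38 and 8.87 with the empty vector. Its groups did not overlap, and the log2 difference was 0.64 ± 0.20 (SE). Btk, a kinase of B and myeloid cells, differed by 0.21 ± 0.13 with overlap.

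Of 19 adaptors and effectors that couple the receptors to Ras and PI3 kinase, 13 were higher and 6 lower (median 0.18). Sos1, the exchange factor that activates Ras, read 8.91, 8.64 and 9.12 with MN1 and 8.27, 7.78 and 7.96 with the empty vector. It did not overlap and differed by 0.89 ± 0.18 (SE). Gab1, a docking adaptor, differed by 0.87 ± 0.45 with overlap. Shc1, the adaptor recruited to the tyrosines of the beta chain, lay below in every MN1 array, by -0.23 ± 0.09 on the log2 scale; it was named after its values were seen.

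Of 22 inhibitors of receptor and STAT signalling, 12 were higher and 10 lower (median 0.06). Cish, a STAT5-induced inhibitor of cytokine receptors, read 11.05, 10.58 and 11.10 with MN1 and 11.46, 10.996 and 11.30 with the empty vector, which gives a log2 difference of -0.34 ± 0.19 (SE). Socs1, which inhibits Janus kinases, read 9.17, 9.43 and 9.82 with MN1 and 10.34, 9.70 and 9.89 with the empty vector, which gives a log2 difference of -0.50 ± 0.23. In Cish, MN1 replicates 1 and 3 lay above empty vector replicate 2; in Socs1, MN1 replicate 3 did. Socs2 differed by -0.13 ± 0.28 and Socs3, the inhibitor of the G-CSF receptor, by -0.25 ± 0.38. Ptpn6 (SHP-1), a phosphatase that dampens beta chain signalling, differed by -0.36 ± 0.34 and was lowest on MN1 replicate 1 at 10.26. All 4 of the Cish and Socs1 to Socs3 genes had a lower MN1 mean, and none of them separated the groups. The other Socs genes had a higher MN1 mean, by 0.18 for Socs4, 0.34 for Socs5, 0.25 for Socs6 and 0.043 for Socs7. The groups did not overlap for 2 of the 22 inhibitors, Socs5 and Dok1, both with MN1 above, and they are named because of these values. Socs5 read 8.71, 9.27 and 8.73 with MN1 and 8.70, 8.39 and 8.60 with the empty vector, so that the nearest arrays of the groups all but met. Dok1, an adaptor that dampens tyrosine kinase signalling, read 8.85, 9.09 and 8.97 with MN1 and 8.83, 8.82 and 8.33 with the empty vector, which gives a log2 difference of 0.31 ± 0.16 (SE).

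Of 20 genes known as STAT5 targets, 8 were higher and 12 lower (median -0.08); 4 of them are the Cish and Socs genes just given. Osm, which encodes oncostatin M, read 9.44, 9.07 and 10.16 with MN1 and 10.31, 10.87 and 10.37 with the empty vector. It was the 1 member of this list without overlap, with a log2 difference of -0.96 ± 0.30 (SE). Pim1, a survival kinase, read 12.27, 11.86 and 12.75 with MN1 and 12.45, 12.36 and 12.27 with the empty vector, a difference of -0.07 ± 0.22. Il2ra, the IL-2 receptor alpha chain, differed by 0.81 ± 0.57 with overlap.

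Of 16 genes known as STAT3 targets, 8 were higher and 8 lower (median 0.08). Mmp9, the neutrophil gelatinase, read 8.52, 9.21 and 9.25 with MN1 and 9.74, 10.58 and 9.58 with the empty vector. It did not overlap, and the log2 difference was -0.97 ± 0.32 (SE). Lcn2, a neutrophil granule protein, differed by -0.97 ± 0.74 with overlap, from 10.86 to 13.80 within the MN1 group. Mmp9 and Lcn2 also stand in the neutrophil marker list, whose values are given above, and the part of neutrophils in them was not tested.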

How the data were processed

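Per the labels' protocols, RNA of the sorted cells was biotin-labelled with a whole-transcript kit for Affymetrix arrays of 1 colour. The values are log2 expression per probe set as deposited by the authors, which the submitters' processing notes credit to RMA. The sources used here give neither the software version nor which arrays were normalized together. RMA draws dim values together, so differences of dim genes are understated.

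Of 35557 probe sets, 21789 carry 1 gene symbol in the platform annotation, 1621 several and 12147 are not named in it. Where a gene had several (999 genes) the set with the highest mean was kept, leaving 19938 genes. Groups and replicate numbers come from the sample titles. The test was limma (version 3.58.1, R 4.3.3; lmFit, eBayes, 4 residual and 2.43 prior degrees of freedom), two-sided; p-values were adjusted by Benjamini-Hochberg across the 19938 genes, with 0.05 as the threshold. Differences are MN1 minus empty vector; their SE and 95% intervals are the moderated ones. The fit was tried on simulated data with added shifts larger than the difference of any member, so the trial does not cover differences of the members' size. Paralog ratios used an exact permutation test. Promoters were searched and aligned in Python (Biopython 1.88).

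The members and lists were chosen with earlier results of these data known. Named are the 9 members, Mn1, Cish, Socs1 to Socs3, Pim1, Il5ra, Il3, Csf2 and Csf3; per pathway list the 2 genes with the largest difference; per marker list, those with the largest SD, given here only for lists beside a result; and the 3 genes most correlated with each of the 3 most variable members. Other genes are background to these. Of 255 list entries, those without a single-named probe set were left out.

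Alternatives were the replicate block, median-centring, quantile normalization, removal of the dimmest 40%, the mean of probe sets, array weights, a robust prior with an intensity trend, every probe set, a threshold of 0.1 and each array left out. Dropping replicate 3 of both groups was added after seeing the data.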

Additional observations from a re-analysis of the deposited data

How the results depend on the processing

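The count of genes past the threshold was 0 under all 16 alternatives tried, with a smallest adjusted p of 0.0989, without MN1 replicate 1. Jak2 stayed lower in all 14 of its alternatives, between -0.60 and -0.37. Its groups did not overlap, so leaving arrays out could not turn its sign. The block, the mean of probe sets, the removal of dim genes and the changed prior cannot alter a member's difference. Csf2rb2 (-0.35 to -0.08) and Stat5a (-0.25 to -0.02) also kept their sign in all of theirs. With arrays left out, the differences of the other members crossed 0, as ranges of -0.219 to 0.0753 for Csf2ra, -0.188 to 0.0782 for Csf2rb, -0.874 to 0.0124 for Csf3r, -0.245 to 0.0145 for Il3ra, -0.0031 to 0.323 for Stat3 and -0.0916 to 0.168 for Stat5b; Stat5b was -0.118 without replicate 3 of both groups. Stat5b was also -0.0281 under quantile normalization. The cause was not tested. Members without overlap numbered 0 to 1 above and 1 to 2 below with an array left out, a smaller comparison. List medians with an array left out ran from 0.0487 to 0.237 for adaptors, -0.0689 to 0.127 for inhibitors, -0.246 to 0.0148 for STAT5 targets and -0.12 to 0.18 for STAT3 targets. Under quantile normalization the medians were 0.0947 for adaptors and -0.0445 for inhibitors. With the dimmest 40% left out, fewer ligands were measured and their median was -0.37.

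With the replicate number as a block, 0 genes passed and Jak2 had an adjusted p of 0.5 at the same difference of -0.47. Same-numbered arrays deviated with correlations of 0.13, 0.07 and 0.32, where those of unlike-numbered arrays ran from -0.50 to 0.44. The labels do not say whether the numbers mark the independent experiments, so they were not taken to pair the samples. The number of arrays limits all values.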

Other observations

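The ligands of the gp130 receptors, which signal through Janus kinases and Stat3, were looked at after the values of Osm and Lif had been seen; Lif had come up as one of the genes most like Jak2 over the arrays. Of 9 such ligands listed, 8 were measured, of which 7 were lower with MN1 and 1 higher, and for 5 (Il6, Lif, Osm, Il11 and Ctf2) the MN1 arrays lay below all empty vector arrays. Without Osm and Lif, which prompted the list, it was 3 of 6, against 10.3% of all genes. Since the family was still chosen from these data, this count is a description, and the contrast was not tested. Il6, an inflammatory cytokine, read 8.77, 9.02 and 9.99 with MN1 and 10.31, 10.14 and 10.56 with the empty vector. Its log2 difference was -1.08 ± 0.32 (SE), or 2.11-fold lower, and ran from -1.44 to -0.84 with an array left out (limma adjusted p = 0.584). Lif, leukaemia inhibitory factor, read 7.57, 7.52 and 8.43 with MN1 and 9.01, 8.95 and 8.51 with the empty vector, which gives a log2 difference of -0.98 ± 0.28. Il11 and Ctf2 were read at much lower levels, with means of 5.19 and 5.06 with MN1, and differed by -0.20 ± 0.11 and -0.21 ± 0.10. Clcf1 was the 1 ligand with a higher MN1 mean, by 0.35 ± 0.27. None passed adjustment over all genes.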
